A study of Mus musculus with 34 samples.

Results

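Resident macrophage markers are genes that mark macrophages living long term in a tissue, as opposed to cells newly derived from blood monocytes. Kidney macrophages take up debris and immune complexes, and in cystic kidneys macrophages are known to gather around cysts. The 9 genes described here were *Folr2*, a folate receptor; *Fcna*, ficolin A, a lectin that binds microbial sugars; *Cbr2*, a carbonyl reductase; *Lyve1*, a hyaluronan receptor that lymphatic endothelium also carries; *Mrc1*, the mannose receptor CD206; *Cd163*, the scavenger receptor for haemoglobin bound to haptoglobin; *Timd4*, a receptor for phosphatidylserine on dying cells; *F13a1*, the A subunit of coagulation factor XIII; and *Stab1*, a scavenger receptor that sinusoidal endothelium also carries. All 9 were among the 23509 genes of the count tables, and all 9 passed the filter on low counts together with 15644 genes in all. *Folr2*, *Fcna* and *Cbr2* were picked on their low values after treatment in these mice, so their differences between groups are given as a description with no test. The tests concern the other 6, which were listed as known markers but with earlier results of these data known, so their p-values are not independent evidence of a direction.

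Whole kidneys were taken on postnatal day 28 (P28) from 34 mice on the C57BL6 background. Wild-type mice with no treatment (UNT, n = 12) were compared with *Pkd2*-KO mice given PBS (n = 11) or the oligonucleotide RGLS4326 at 20 mg per kg body weight (n = 11), both injected under the skin on P10, P11, P12 and P19. The study's account of this comparison gives fewer PBS-treated mice than the labels do, and all 11 libraries labelled PBS were used. The labels spell the genotype "Pdk2KO", while the study describes floxed *Pkd2* alleles deleted by a Cre under the *Pkhd1* promoter, which is active in collecting duct epithelium. RGLS4326, the drug, binds the seed of the microRNA miR-17 and blocks it. *Pkd2* itself ranged from 219.6 to 337.7 CPM (a gene's reads scaled to the size of the library, with TMM factors) in UNT, from 98.03 to 214.5 CPM in PBS-treated and from 170.03 to 236.9 CPM in RGLS4326-treated kidneys. Each library held 17603122 to 54981992 reads in genes, and all 8 genes listed as markers of kidney tissue, such as *Umod* and *Lrp2*, passed the filter on low counts.

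The following microRNA is the one that RGLS4326 was made against, and it is shown so that matches to it can be looked for in the markers. The capitals mark the seed, bases 2 to 8 of the mature microRNA (RefSeq, GRCm38.p6, chromosome 14, 115043684 to 115043706, plus strand).
miR-17-5p: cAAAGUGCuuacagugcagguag
None of the 9 markers held a match to this seed (GCACTTT, or CACTTTA) in its longest 3′ untranslated region, whose lengths ran from 134 bases in *Stab1* to 1587 bases in *F13a1*. Among 14196 tested genes with such a region, 21.22% held at least 1 match, and the median length was 1150 bases, whereas those of *Folr2*, *Fcna*, *Cbr2* and *Stab1* were 134 to 233 bases long. An absent match says only that these letters were not in these regions.

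Macrophage genes are commonly bound by the ETS factor PU.1, and the promoters of 2 markers that were low after treatment and of *Mrc1*, which was not, are shown for comparison. They run from 250 bases before to 50 after the start of transcription (RefSeq, GRCm38.p6), 5′ to 3′ on the strand of the gene, and the capitals mark GAGGAA, a PU.1 core sequence, or its reverse complement TTCCTC. The *Fcna* promoter lies at chr2:25627925-25628224, minus strand, that of *Cbr2* at chr11:120731972-120732271, minus strand, and that of *Mrc1* at chr2:14229164-14229463, plus strand.
Fcna: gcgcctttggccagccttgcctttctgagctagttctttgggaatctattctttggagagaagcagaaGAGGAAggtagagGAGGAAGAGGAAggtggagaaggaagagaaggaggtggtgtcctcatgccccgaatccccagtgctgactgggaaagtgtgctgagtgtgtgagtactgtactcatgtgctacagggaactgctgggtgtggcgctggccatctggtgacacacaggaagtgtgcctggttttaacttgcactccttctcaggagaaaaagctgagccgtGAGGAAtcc
Cbr2: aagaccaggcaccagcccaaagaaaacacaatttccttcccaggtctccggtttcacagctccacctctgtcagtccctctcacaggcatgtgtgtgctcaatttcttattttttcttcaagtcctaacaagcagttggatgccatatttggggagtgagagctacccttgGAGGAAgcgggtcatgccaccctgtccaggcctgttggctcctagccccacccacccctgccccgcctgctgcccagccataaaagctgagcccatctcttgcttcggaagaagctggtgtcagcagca
Mrc1: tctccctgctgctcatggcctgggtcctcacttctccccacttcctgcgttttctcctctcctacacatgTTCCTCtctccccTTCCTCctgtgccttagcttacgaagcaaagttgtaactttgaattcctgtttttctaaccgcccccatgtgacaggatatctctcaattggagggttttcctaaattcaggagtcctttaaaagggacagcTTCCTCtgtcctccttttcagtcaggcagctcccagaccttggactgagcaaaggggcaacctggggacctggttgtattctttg
The 6-base sequence, counted on both strands, stood 4 times in the *Fcna* promoter, once in that of *Cbr2* and 3 times in that of *Mrc1*. Promoters of *F13a1* and *Stab1* held it too. It was absent from the listed promoters of *Folr2*, *Cd163* and *Timd4*, none was listed for *Lyve1*, and 28.28% of 32851 promoters of the same length held it. TGCTGA, a partial recognition site of MAF factors, was in 19.48% of these promoters and in those of *Fcna*, *Cbr2*, *Folr2*, *Timd4* and *Stab1*, and no match to it overlapped one to GAGGAA. Matches stood in promoters of markers that were low after treatment and in those of markers that were not.

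In UNT kidneys the markers were at low levels, and their order is given per kilobase of exon because genes of different length collect reads unequally. *Cbr2* was highest, with a median of 6.38 CPM per kb (range 3.76 to 7.95), followed by *Stab1* at 5.15 (3.03 to 5.98), and these ranges overlapped. *Folr2* followed with 2.48 CPM per kb (1.71 to 4.40) and *Mrc1* with 1.41 (1.02 to 1.73), which overlapped only at the edge of their ranges. *Lyve1*, *Cd163*, *Fcna* and *F13a1* lay between 0.295 and 0.438 CPM per kb with overlapping ranges, and *Timd4* was last at 0.013. In PBS-treated kidneys *Cbr2* still led at 23.6 CPM per kb, with *Mrc1* at 15.9 and *Stab1* at 15.2, and all 3 ranges overlapped. In RGLS4326-treated kidneys *Stab1* (16.1) and *Mrc1* (15.5) stood above *Cbr2* (10.03), and all 3 ranges overlapped.

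**Figure D1:**
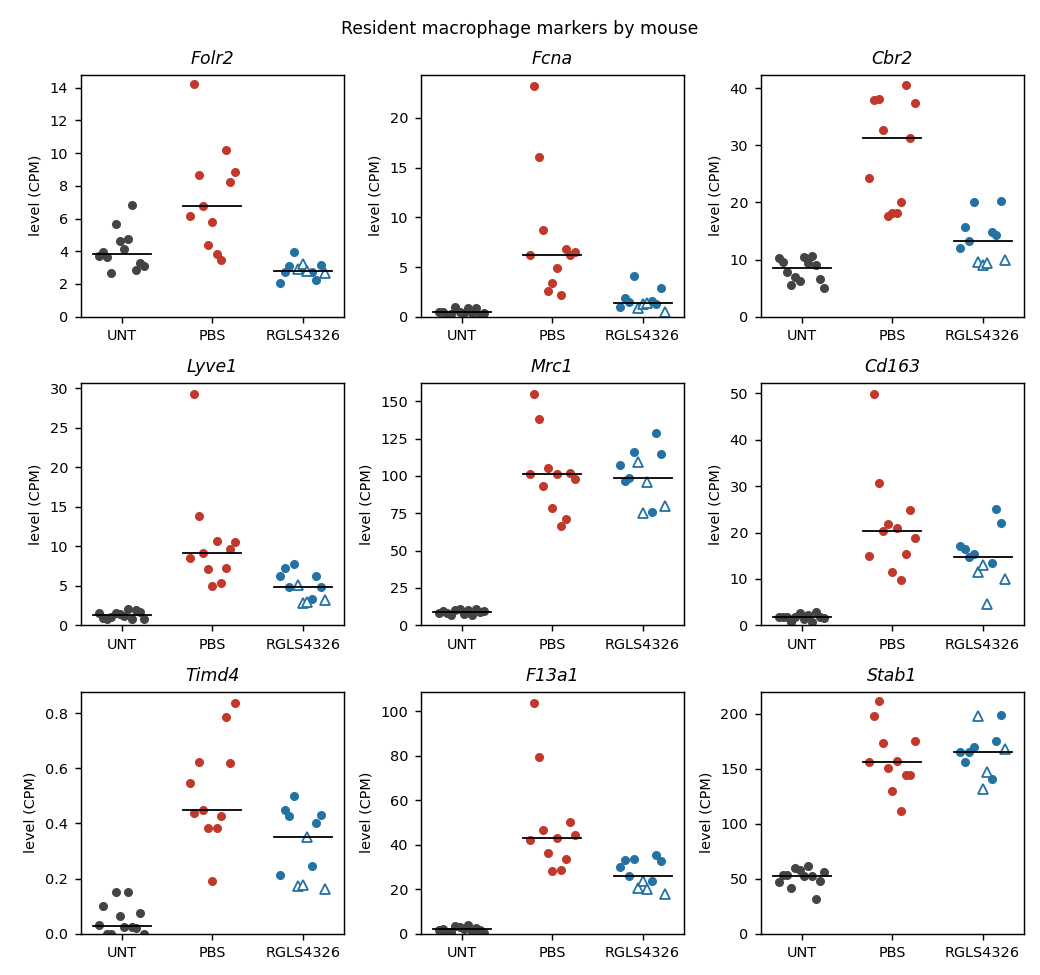
Level of each of the 9 markers in CPM (linear axis from 0) for every mouse, in UNT (black), PBS-treated (red) and RGLS4326-treated (blue) groups; lines are group medians and open triangles are the 4 RGLS4326 libraries with a high share of reads in no gene. All *Pkd2*-KO mice lie above the UNT mice for *Lyve1*, *Mrc1*, *Cd163*, *F13a1* and *Stab1*. For *Timd4* they do so only by 0.161 CPM (4 counts, RGLS4326 replicate 11) against 0.153 CPM (7 counts, UNT replicate 5). *Folr2* in RGLS4326-treated mice (2.07 to 3.93 CPM) lies within or below the UNT range (2.65 to 6.80 CPM).

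Before the comparisons, a feature of the libraries has to be given. In 4 of the 11 RGLS4326 libraries (replicates 5, 6, 7 and 11) reads in no gene made up 11.3% to 12.0% of the reads, above every PBS library (5.18% to 9.0%), and in UNT libraries the share was 9.84% to 11.3%. The libraries also fall into 3 sets by the numbering of their tables, and all RGLS4326 libraries of set 2 were among these 4. In the 4 mice the mean level of 17 genes common to macrophages, used here as a measure of macrophage RNA, was 5.63 to 6.23 on the log2(CPM + 1) scale, below that of the other 7 treated mice (6.28 to 6.69). Treatment results of the markers and lists are therefore given with and without these 4 libraries, an alternative added after the data had been seen. With them, 5280 of 15644 genes were called between RGLS4326 and PBS, and without them 332 of 15837, of which 4121 had an unadjusted p under 0.05. Of the markers, *Cbr2* and *Cd163* did not overlap between the 4 mice and the other 7. *Cbr2* had 9.11 to 9.93 CPM in the 4 and 12.1 to 20.3 CPM in the other 7, and *Cd163* 4.64 to 12.99 CPM and 13.3 to 25.06 CPM. *F13a1* (18.1 to 23.9 against 23.8 to 35.3 CPM) and *Lyve1* (2.81 to 5.06 against 3.38 to 7.76 CPM) overlapped in part, and *Folr2*, *Mrc1* and *Stab1* over most of their ranges. What set this share apart was not tested.

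The effect of cystic disease was measured first, by comparing PBS-treated *Pkd2*-KO with UNT kidneys. Of the 6 markers not picked on treatment, *Timd4* passed the low-count filter through the *Pkd2*-KO groups alone (0 of 12 UNT libraries reached the minimum), so its difference from UNT was in part set beforehand and is given without a p. The other 5 were higher in disease, by 3.11-fold for *Stab1* to 24.7-fold for *F13a1*, and all 5 were called by the edgeR quasi-likelihood test at an adjusted p under 0.05, a call that 43.1% of all tested genes shared. Their ranges did not overlap between the groups, which held for 22.7% of all tested genes, and their median log2 fold change was 3.50, beside 0.04 over all tested genes. In bulk tissue, more cells of a type and more RNA per cell cannot be told apart, and this holds for each difference below.

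*F13a1* ranged from 0.393 to 3.84 CPM (median 1.99) in UNT and from 28.1 to 103.7 CPM (median 43.2) in PBS-treated kidneys. The lowest diseased mouse stood above the highest UNT mouse, with a log2 fold change of 4.63 (adjusted p = 2.2e-17 by edgeR, SE 0.27). *Cd163* rose from a median of 1.73 CPM (0.619 to 2.79) to 20.2 CPM (9.85 to 49.8). Its groups were apart as well, with a log2 fold change of 3.64 (adjusted p = 4.4e-15 by edgeR, SE 0.26).

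*Mrc1* rose from a median of 8.97 CPM (6.52 to 11.01) to 101 CPM (66.1 to 154.8), again with no overlap. Its log2 fold change was 3.50 (adjusted p = 3.0e-23 by edgeR, SE 0.13), the smallest p among the 5. *Lyve1* rose from 1.28 CPM (0.761 to 2.07) to 9.10 CPM (4.92 to 29.3), a log2 fold change of 3.01 (adjusted p = 2.9e-13 by edgeR, SE 0.25). In *Lyve1* a single PBS-treated mouse, replicate 2, stood far above the others, whose highest value was below 15 CPM.

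*Stab1* was the marker of the 5 with the highest level in UNT kidneys in CPM, 53.0 (31.2 to 61.5), and reached 156 CPM (112 to 211) in PBS-treated kidneys. The log2 fold change of 1.64 (adjusted p = 2.3e-17 by edgeR, SE 0.10) was the smallest of the 5. *Timd4* was close to the limit of detection. It had 0 to 7 counts per library in UNT, with no count in 3 libraries, where 3 counts would correspond to 0.067 to 0.144 CPM, and 6 to 43 counts in PBS-treated kidneys. Over all mice of a group it had 25 counts in UNT and 214 in PBS, or 0.0512 and 0.567 CPM of the summed reads in genes. The fitted log2 difference was 3.09 (SE 0.33), a description for the reason given above.

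Of the 3 picked markers, *Fcna* differed most between PBS-treated and UNT kidneys. It ranged from 0.152 to 0.963 CPM (median 0.427) in UNT and from 2.18 to 23.2 CPM (median 6.23) in PBS-treated mice, a log2 difference of 3.93 (SE 0.38). *Cbr2* ranged from 4.99 to 10.6 CPM (median 8.47) in UNT and from 17.6 to 40.6 CPM (median 31.3) in PBS-treated mice, a log2 difference of 1.82 (SE 0.17). *Folr2* stood apart from the other 8 in that its disease and UNT ranges overlapped. It had 2.65 to 6.80 CPM (median 3.84) in UNT and 3.46 to 14.2 CPM (median 6.79) in PBS-treated mice, of which 5 of 11 were above every UNT mouse, with a log2 difference of 0.83 (SE 0.18). The same PBS-treated mice serve in the contrast on which these 3 were picked, so none of these values was tested.

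**Figure D2:**
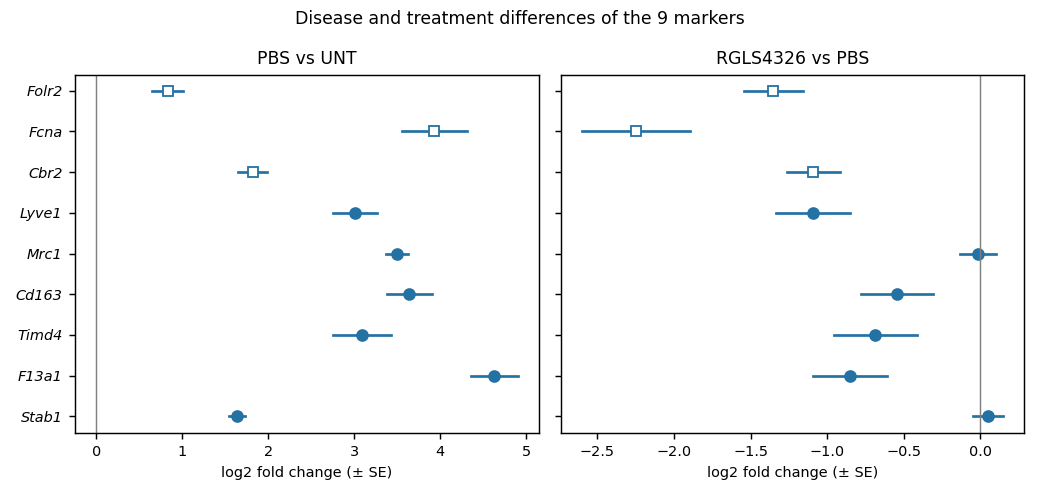
Log2 fold change with its standard error (edgeR, bars) for the 9 markers, PBS-treated against UNT (left) and RGLS4326-treated against PBS-treated kidneys (right); open squares are the 3 markers picked on the right-hand contrast. All 9 lie above 0 on the left, while on the right *Mrc1* (-0.02) and *Stab1* (0.05) lie at 0 and the other 7 below it.

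Whether treatment lowered the markers was then examined in RGLS4326-treated against PBS-treated kidneys. *Lyve1*, *F13a1* and *Timd4* fell, whereas *Cd163*, *Mrc1* and *Stab1* did not pass the threshold. In numbers, 3 of 6 were called lower, where 18.5% of all tested genes were called lower, and 0 of 6 higher, where 15.3% were. In none of the 9 did the treated and PBS ranges separate, which happened for 0.0192% of all tested genes in the lower direction. The median log2 fold change of the 6 was -0.62, beside 0.00 over all tested genes. Without *Timd4*, which reached the filter's minimum in 10 PBS but 6 RGLS4326 libraries, 2 of 5 were lower, with a median of -0.55.

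*Lyve1* ranged from 2.81 to 7.76 CPM (median 4.84) in treated mice against 4.92 to 29.3 CPM (median 9.10) in PBS mice. All 11 treated mice were below the PBS median and 6 below the lowest PBS mouse. The log2 fold change was -1.09 (adjusted p = 0.00289 by edgeR, SE 0.24), a level 53.2% lower. *F13a1* ranged from 18.1 to 35.3 CPM (median 26.03) against 28.1 to 103.7 CPM, again with 11 of 11 treated mice below the PBS median. Its log2 fold change was -0.85 (adjusted p = 0.00964 by edgeR, SE 0.24). Without the 4 libraries with a high share of reads in no gene, the log2 fold change was -0.87 for *Lyve1* (edgeR adjusted p = 0.0664) and -0.67 for *F13a1* (adjusted p = 0.134), so neither was called among 7 treated mice. None of the 6 was then called by edgeR, and 2 had an unadjusted p under 0.05.

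*Timd4* had 4 to 16 counts in treated mice, a median of 0.353 CPM (0.161 to 0.499) beside 0.451 CPM (0.193 to 0.837) in PBS mice. With a log2 fold change of -0.69 (adjusted p = 0.0496 by edgeR, SE 0.27) it stood at the threshold, and leaving out 1 mouse ended the call in 20 of 34 cases. With the 4 libraries left out the log2 fold change was -0.46 (edgeR adjusted p = 0.327). *Cd163* had a median of 14.8 CPM (4.64 to 25.06) against 20.2 CPM (9.85 to 49.8), and its log2 fold change of -0.55 (SE 0.24) had an edgeR adjusted p of 0.0706.

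*Mrc1* had 74.9 to 128.8 CPM (median 98.8) in treated and 66.1 to 154.8 CPM (median 101) in PBS mice. The treated range lay within the wider PBS range. The log2 fold change of -0.02 (adjusted p = 0.929 by edgeR, SE 0.12) had a 95% interval from -0.26 to 0.22. *Stab1* had 131.9 to 199.2 CPM (median 166) against 112 to 211 CPM, with a log2 fold change of 0.05 (adjusted p = 0.694 by edgeR, SE 0.10) and an interval from -0.15 to 0.25. A fall as large as that of *Lyve1* lies outside both intervals. With the 4 libraries left out, the log2 fold change was 0.07 for *Mrc1* (edgeR adjusted p = 0.776), 0.07 for *Stab1* (adjusted p = 0.69) and -0.29 for *Cd163* (adjusted p = 0.457).

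The markers were also compared within each mouse, as the log2 ratio of each unpicked marker to *Mrc1* on the log2(CPM + 1) scale. *Mrc1* was taken as the reference after its values had been seen, so these ratios restate the differences above and carry no test. The ratio of *Lyve1* to *Mrc1* was -4.12 ± 0.29 (SD, n = 11) in treated and -3.25 ± 0.37 (n = 11) in PBS mice, a difference of -0.87, and those of *F13a1* and *Cd163* differed by -0.76 and -0.49. For each of these 3 markers all 11 treated mice lay below the PBS median. The ratios of *Timd4* (-0.20) and *Stab1* (0.06) differed less, and for *Timd4*, whose level was below 1 CPM, the pseudocount shrinks the difference. Without the 4 libraries the differences were -0.74 for *Lyve1*, -0.64 for *F13a1* and -0.26 for *Cd163*.

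The 3 picked markers are given for their size. *Fcna* ranged from 0.442 to 4.10 CPM (median 1.38) in treated mice, and 9 of 11 were below the lowest PBS mouse, a log2 difference of -2.25 (SE 0.35). *Folr2* ranged from 2.07 to 3.93 CPM (median 2.76), with 10 of 11 mice below every PBS mouse and a log2 difference of -1.35 (SE 0.19). *Cbr2* ranged from 9.11 to 20.3 CPM (median 13.3), with 9 of 11 mice below every PBS mouse and a log2 difference of -1.09 (SE 0.17). The rule that picked them set no threshold. Beside them, *Lyve1* had the same log2 difference as *Cbr2* to 2 decimals but a larger standard error. With the 4 libraries left out, the differences were -1.96 for *Fcna*, -1.36 for *Folr2* and -0.86 for *Cbr2*. In sets 1, 2 and 3 of the libraries fitted alone, *Folr2* differed by -1.71, -0.79 and -1.50.

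*Folr2* needs care for a further reason. In GENCODE M21 annotation of GRCm38, *Folr2* (ENSMUSG00000032725, chromosome 7, 101839988 to 101857194, minus strand) shares 975 of its 1546 exon bases (63.1%) with exons of *Gm10602*, an antisense gene on the other strand that was not analysed here. The kit marked strand, but the setting of the counting is not given in the sources used here, so reads of the 2 genes may not have been told apart. *Fcna* (ENSMUSG00000026938, chromosome 2, 25624666 to 25628030, minus strand) shares 90 of 1374 exon bases with antisense *Fcnaos*, *F13a1* shares 74 with *Gm30489*, and *Stab1* shares 112 of 10288 with *Nt5dc2* on the other strand. *Cbr2* (ENSMUSG00000025150, chromosome 11, 120729489 to 120732114, minus strand), *Lyve1*, *Mrc1*, *Cd163* and *Timd4* share no exon bases with another gene.

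**Figure D3:**
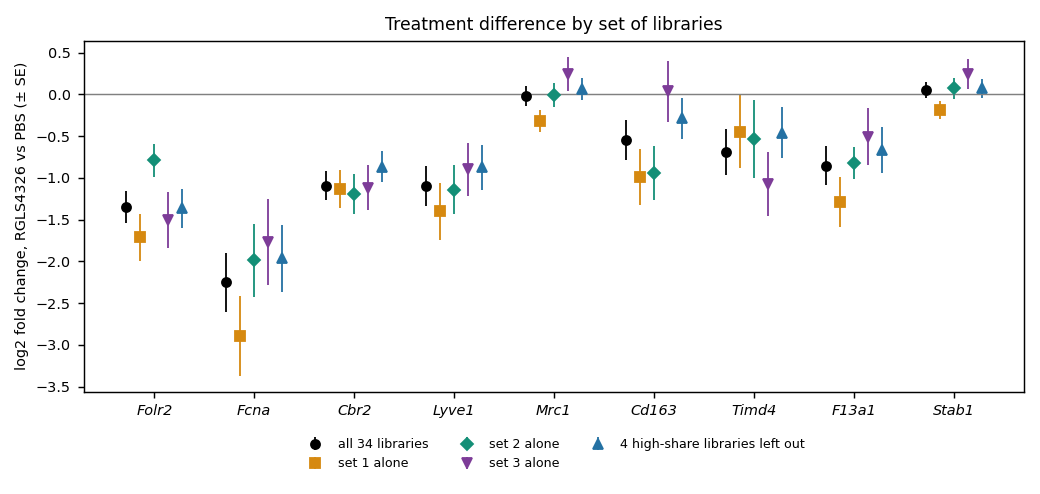
Log2 fold change (± SE, edgeR) of RGLS4326-treated against PBS-treated kidneys for each marker in all 34 libraries, in each of the 3 sets of libraries fitted alone, and without the 4 RGLS4326 libraries with a high share of reads in no gene. *Lyve1*, *Timd4* and *F13a1* lie below 0 in every fit shown, while *Mrc1*, *Stab1* and *Cd163* lie on both sides. *Folr2*, *Fcna* and *Cbr2* also lie below 0 in every fit, but they were picked as low in these same libraries.

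Within the 3 sets of libraries the directions were mostly the same. *Lyve1* differed by -1.40, -1.14 and -0.90 (log2) in sets 1, 2 and 3 fitted alone, and *F13a1* by -1.29, -0.83 and -0.51. The shares of reads in no gene overlapped between RGLS4326 and PBS libraries in set 1 (4.94% to 8.38% and 5.18% to 7.24%) and in set 3 (6.14% to 11.7% and 5.67% to 6.65%), and not in set 2. Set 1 alone gave edgeR adjusted p-values of 0.0723 for *Lyve1* and 0.0664 for *F13a1*. With that share as a covariate over all sets, *Lyve1* had -0.86 (edgeR adjusted p = 0.0944) and *F13a1* -0.70 (adjusted p = 0.15). Set 2 alone called *Lyve1* (edgeR adjusted p = 0.018) and *F13a1* (adjusted p = 0.012), among 4065 of 15944 genes called in that fit. Set 3 alone called 0 of 15676 genes, of which 2826 had an unadjusted p under 0.05. *Cd163* differed by -0.99 and -0.94 in sets 1 and 2 and by 0.04 in set 3, and *Mrc1* by -0.32, -0.01 and 0.25. The test of a treatment effect that differs between sets called 0 of 15644 genes in edgeR, with 1126 at an unadjusted p under 0.05, and that p was lowest for *Mrc1* (0.0928) among the 9.

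How far treated kidneys remained from normal was examined against UNT mice. The 5 unpicked markers other than *Timd4* were all higher in treated than in UNT kidneys and were called, a call shared by 40.8% of tested genes, and their ranges did not overlap, as for 20.7% of tested genes. *Mrc1* remained 11.2-fold and *F13a1* 13.7-fold above UNT, *Cd163* 8.55-fold, *Lyve1* 3.78-fold and *Stab1* 3.22-fold. *Timd4*, at 102 counts over the treated mice, was 5.29-fold above UNT in the fit, again as a description. Of the picked markers, *Fcna* (log2 difference 1.68, SE 0.38) and *Cbr2* (0.73, SE 0.17) lay above the UNT median in all 11 treated mice. *Folr2* lay below the UNT median in 10 of 11, with a log2 difference of -0.52 (SE 0.19). This contrast shares its mice with both others.

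The markers were next set against the mean log2(CPM + 1) of 17 pan-macrophage genes, such as *Adgre1*, *Csf1r* and *Lyz2*, across mice of a group. Pearson's r and Spearman's rho were computed for 9 markers in 3 groups, 27 pairs, with two-sided permutation tests of 100000 resamples adjusted over the 27. By Pearson's r 5 of 27 passed, and by rho 6, which added *Fcna* in both *Pkd2*-KO groups and left out *Folr2* in UNT. The share of all tested genes that would pass was not measured, so these counts cannot be called particular to the markers. In PBS-treated mice (n = 11) *Folr2* followed the macrophage level most closely, with r = 0.897 (permutation test, adjusted p = 0.00567) and rho = 0.982 (adjusted p = 0.00027, the smallest that these permutations can give). *Cbr2* had r = 0.861 (permutation test, adjusted p = 0.00819) and rho = 0.882 (adjusted p = 0.00801). Without the 2 mice farthest from the median, r was 0.889 and 0.933.

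*Mrc1* had the lowest r in PBS-treated mice, 0.371 (permutation test, adjusted p = 0.354; rho = 0.20, adjusted p = 0.649), or 0.513 without the 2 farthest mice. In UNT mice (n = 12) *Folr2* passed by r (0.852, permutation test, adjusted p = 0.00567) but not by rho (0.692, adjusted p = 0.060), and r was 0.596 without the 2 farthest mice, on which that relation in part rests. In RGLS4326-treated mice (n = 11) *Cbr2* (r = 0.821, permutation test, adjusted p = 0.00891; rho = 0.873, adjusted p = 0.00801) and *Timd4* (r = 0.773, permutation test, adjusted p = 0.00891; rho = 0.827, adjusted p = 0.0148) passed, with r of 0.874 and 0.673 without the 2 farthest mice. The 4 libraries with a high share of reads in no gene were the lowest on the macrophage axis. Among the other 7 treated mice r was 0.817 for *Cbr2* (exact permutation test, adjusted p = 0.216) and 0.565 for *Timd4* (exact permutation test, adjusted p = 0.224), and none of 9 passed. *Folr2*, which had r = 0.111 over all 11 treated mice, had 0.658 among these 7 (exact permutation test, adjusted p = 0.224).

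**Figure D4:**
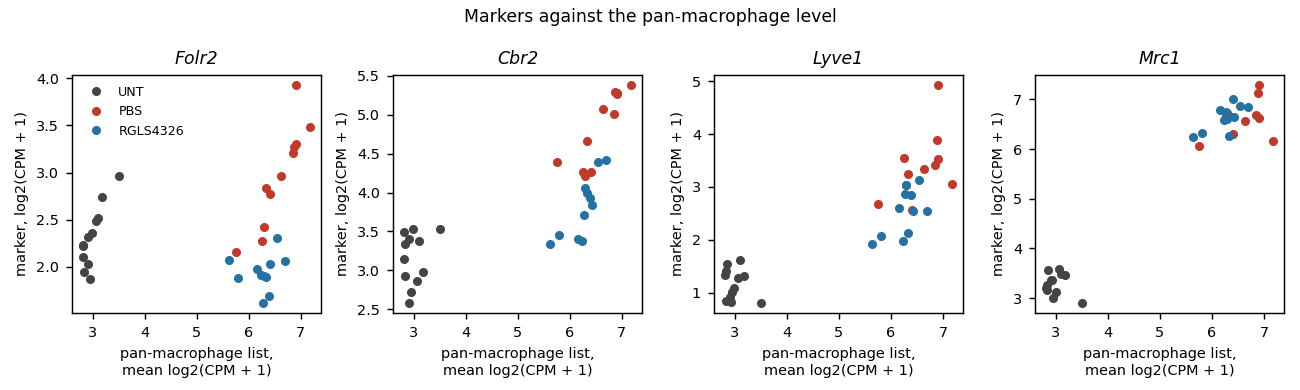
Level of 4 markers on the log2(CPM + 1) scale (vertical) against the mean of 17 pan-macrophage genes on the same scale (horizontal), 1 point per mouse, UNT black, PBS red and RGLS4326 blue. *Folr2* in most treated mice lies below PBS-treated mice of a similar macrophage level (median -4.39 against -3.63 relative to it, with overlapping ranges), whereas *Mrc1* points of the treated and PBS groups lie among each other.

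Levels relative to that macrophage level are given for the 4 markers above 2 CPM at the median in UNT, since the added 1 CPM shrinks the differences of the others. For *Folr2* and *Cbr2* the step from PBS to treated mice restates what they were picked on. *Folr2* stood -0.60 (median, log2 difference from the macrophage mean) in UNT, -3.63 (-3.98 to -2.98) in PBS-treated and -4.39 (-4.70 to -3.56) in RGLS4326-treated mice. *Cbr2* stood at 0.18, -1.67 and -2.35 in the same order, and the treated (-2.86 to -2.14) and PBS (-2.14 to -1.36) ranges were separated by less than 0.01. *Mrc1* stood at 0.39, 0.25 and 0.37, with overlapping ranges in all 3 groups, and *Stab1* at 2.78, 0.82 and 1.01. The PBS and UNT mice do not overlap in the macrophage level itself (5.75 to 7.17 against 2.81 to 3.50, log2 scale).

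The genes whose pattern was most like that of a picked marker were named by Spearman's rho of log2(CPM + 1) values taken as deviations from the group mean, over 34 mice. For *Folr2* they were *Nfam1* (0.829), *P2ry6* (0.811), *Pitpnm1* (0.81), *Ncf4* (0.798) and *Ptges* (0.794), of which *Ncf4*, a subunit of the phagocyte oxidase, and *P2ry6*, a nucleotide receptor, are known from myeloid cells. For *Fcna* they were *Pdpn* (0.848), *Anxa2* (0.821), *Anxa1* (0.81), *Panx1* (0.809) and *Gnb1* (0.804). For *Cbr2* they were *Rprm* (0.90), *Kctd10* (0.88), *Vopp1* (0.868), *S100a6* (0.866) and *Tssc1* (0.855). None of these 15 genes was on the pan-macrophage list, and all of the values share the same libraries.

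A list of 22 other genes known from resident macrophages, 21 of them tested, was set beside the markers. After RGLS4326, 11 were lower (18.5% of all tested genes) and 3 higher (15.3%), with a median log2 fold change of -0.48. Of the 14 that reached the filter's minimum in a UNT library, 6 were lower and 3 higher after treatment, with a median of -0.18, and in disease 10 were higher (43.1% of all tested genes) and 3 lower (39.0%). *Vsig4*, a complement receptor, had a log2 difference of -2.57 (SE 0.35) and *Cd5l*, a secreted scavenger protein, -2.08 (SE 0.37). *Vsig4* had 0.308 to 2.66 CPM in PBS-treated and 0.0402 to 0.443 CPM in treated mice. The lectin genes *Cd209b* (-1.97), *Cd209f* (-1.82), *Cd209d* (-1.70) and *Cd209g* (-1.55) lie in a family of similar sequence, so reads may be shared among them. *Vsig4*, *Cd5l*, *Cd209b*, *Cd209d* and *Cd209g* passed the filter mainly through the PBS group: *Vsig4* reached the minimum in 11 PBS, 2 RGLS4326 and 0 UNT libraries, so a lower level after treatment was in part set beforehand. *Cd209f* reached it in all 22 *Pkd2*-KO libraries and fell (adjusted p = 0.000495 by edgeR).

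A further 7 genes of that list were not called after treatment. *Selenop* and *Gas6*, which are made by other kidney cells too, had log2 fold changes of 0.18 (edgeR adjusted p = 0.215) and -0.02 (adjusted p = 0.81). *Siglec1*, a sialic acid receptor, had a log2 fold change of -0.18 (adjusted p = 0.461 by edgeR, SE 0.18) and *Cx3cr1*, the fractalkine receptor, -0.10 (adjusted p = 0.635 by edgeR, SE 0.16). *Slc40a1*, the iron exporter, *Igf1* and *Maf* rose, by 0.34, 0.28 and 0.39 (log2), and are also made by other kidney cells. With the 4 libraries left out 6 of 21 were called lower and 0 higher, and of the 14 that reached the minimum in a UNT library 2 were lower and 0 higher, with a median of -0.09, where 0.966% of all tested genes were lower and 1.13% higher. *Cd209f* (-1.57, edgeR adjusted p = 0.0242) was among them, while *Slc40a1*, *Igf1* and *Maf* had 0.27, 0.15 and 0.35 (log2) and were not called.

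**Figure D5:**
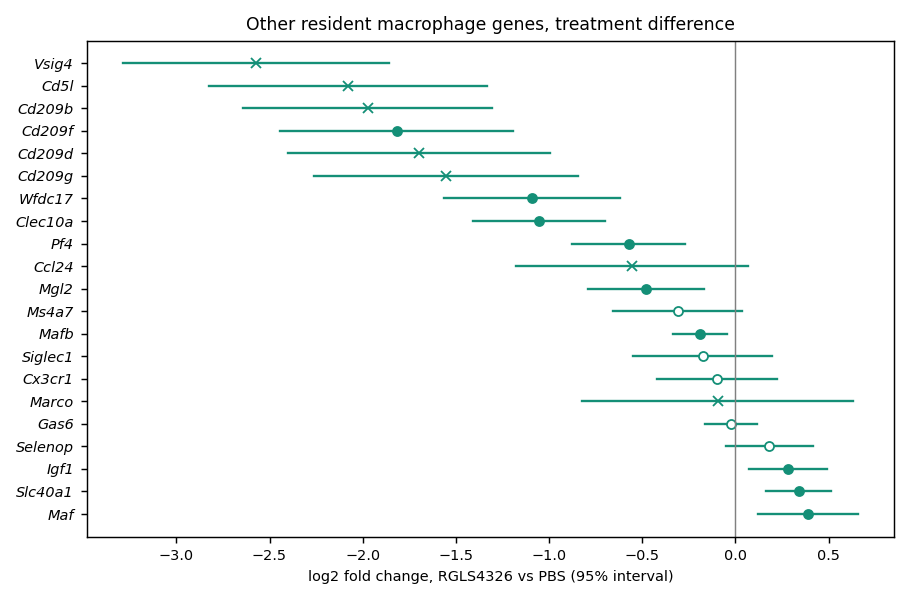
Log2 fold change with its 95% interval (edgeR) of RGLS4326-treated against PBS-treated kidneys for the 21 tested genes of the list of other resident macrophage genes; circles are the 14 genes that reached the low-count minimum in a UNT library, filled where the adjusted p was under 0.05, and crosses are the 7 genes that passed the filter through the *Pkd2*-KO groups alone. Among the circles, 6 filled ones lie below 0 and 3 above, with *Cd209f* lowest at -1.82 and *Maf* highest at 0.39.

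On the pan-macrophage list, 16 of 17 genes were higher in disease (43.1% of all tested genes), and after treatment 10 were lower (18.5%) and 1 higher (15.3%), with a median log2 fold change of -0.46. *Lyz2*, lysozyme and the highest of the list in mean CPM over all libraries though not in UNT, fell by 0.46 on the log2 scale (adjusted p = 0.0332 by edgeR), as did *Cd68*, a lysosomal glycoprotein (-0.80, SE 0.17), and *Trem2* (-0.67), whereas *Csf1r*, the receptor of macrophage growth factors, had -0.27 (edgeR adjusted p = 0.0532), *Adgre1*, which encodes the macrophage antigen F4/80, had 0.07 (edgeR adjusted p = 0.656) and *Itgam* -0.13 (edgeR adjusted p = 0.442). Without the 4 libraries edgeR called 0 of 17 lower (0.966% of all tested genes) and 1 higher (1.13%), and 6 had an unadjusted p under 0.05.

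Because *Lyve1* and *Stab1* are not particular to macrophages, endothelial genes were measured beside them. *Stab2*, the relative of *Stab1* on sinusoidal and lymphatic endothelium, had a log2 fold change of -2.04 in disease and 0.71 after treatment (edgeR adjusted p = 0.00505), and *Prox1*, the transcription factor of lymphatic endothelium, -1.15 and 0.63 (edgeR adjusted p = 0.0112), opposite in sign to *Lyve1* in both contrasts. *Pdpn*, podoplanin, which had the highest mean CPM of the list over all libraries though not in UNT, moved in the same directions as *Lyve1*, by 3.41 and -0.57 (edgeR adjusted p = 0.00224). *Mmrn1*, a lymphatic matrix protein, had -0.11 in disease (edgeR adjusted p = 0.419) and rose after treatment by 0.68 (adjusted p = 0.00131). *Flt4*, the receptor of lymphatic growth factors, rose by 0.54 and 0.23. *Pdpn*, *Prox1* and *Flt4* are also made by other kidney cells. Of the 8 tested genes of the lymphatic and sinusoidal list, which includes *Lyve1*, 5 were higher (15.3% of all tested genes) and 2 lower (18.5%) after treatment. Leaving out the 4 libraries, edgeR called 2 higher (1.13% of all tested genes) and 0 lower (0.966%), with 7 at an unadjusted p under 0.05, and with the no-gene share as a covariate it called 1 of 8. Without the 4 libraries *Mmrn1* had 0.75 (edgeR adjusted p = 0.00682) and was called, and *Stab2* (0.71, adjusted p = 0.0552), *Prox1* (0.61, adjusted p = 0.0812) and *Pdpn* (-0.37, adjusted p = 0.0704) were not. The summed level of that list was 57.1 to 81.7 CPM in UNT, 161.8 to 240.2 in PBS-treated and 128.2 to 212.4 in treated mice. *Pdpn*, at a mean of 80.6 CPM over all libraries, weighs heavily in this sum, which therefore does not stand for the list. The median log2 fold change of the 8 tested genes was 0.22 in disease and 0.41 after treatment. *Ccl21a*, a chemokine of lymphatic endothelium, had 0 counts in all 34 libraries. The part of endothelial RNA in the *Lyve1* and *Stab1* values was not tested.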

How the data were processed

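Kidney poly(A) RNA of 34 mice was sequenced, 1 library per mouse. The deposited files hold whole-number counts of reads for each gene, unnormalized, and the submitters' processing notes name Trim Galore, STAR, HTSeq 0.6.1 and GRCm38 (mm10). The gene annotation and the strand setting are not given in the sources used here. Groups came from the labels. The members and lists were chosen with earlier results of these data known. Counts were tested with edgeR 4.0.16 (quasi-likelihood, TMM factors, filterByExpr, 3 groups in 1 fit, no covariate), two-sided and adjusted by Benjamini-Hochberg over 15644 genes, and called at 0.05. CPM use TMM factors, and CPM per kb divides by merged exon length in GENCODE M21. The fit was tested on simulated data. Named genes were the 9 markers, the 2 to 4 genes of a list with the highest CPM or the largest change, genes overlapping a marker, and the 5 genes most like each picked marker; other list genes were named after their values were seen. The lists held other resident macrophage, pan-macrophage, monocyte and neutrophil, dendritic, alternative activation, signal, endothelial, blood cell, contaminant, relative, kidney and injury genes. Alternatives were other scalings, DESeq2 1.42.0, filters, covariates, sets of libraries, a replicate block, thinned counts and leaving out mice. At 17603122 to 54981992 reads in genes, *Timd4* (0 to 43 counts) and *Fcna* in UNT (4 to 44 counts) were the least precise.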

Additional observations from a re-analysis of the deposited data

How the results depend on the processing

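In disease and against UNT, the 6 unpicked markers (counting *Timd4*, whose difference from UNT the filter in part set) were called in 5 or 6 of 6 under every alternative but 1. Most genes share such calls: with all 34 libraries 12841 of 15644 were called in disease and 12157 against UNT. After treatment 2 or 3 of the 6 were called lower under most alternatives. With counts thinned to the smallest library *Timd4* was not tested and *Cd163* was called (-0.58, edgeR adjusted p = 0.0454), so 3 of 5 were called. The exceptions after treatment were 0 of 6 in edgeR when the no-gene share or the pan-macrophage level was a covariate, in set 1 alone, in set 3 alone and without the 4 libraries high in that share (2, 2, 4, 2 and 2 of 6 at an unadjusted p under 0.05). Calls fell over all genes in these fits, to 89 of 15644, 287 of 15644, 54 of 15737, 0 of 15676 and 332 of 15837, from 5280 of 15644 (in set 3 alone 2826 had an unadjusted p under 0.05). Without the 4 libraries the ratio of *Stab1* to *Mrc1* differed by -0.0029, reversed in sign. Leaving out 1 mouse gave 6 of 6 in disease, 2 to 4 of 6 after treatment and 6 of 6 against UNT. It ended the call of *Timd4* for PBS replicates 1, 2, 3, 4, 9, 10 and 11, RGLS4326 replicates 1, 5, 6, 7, 8, 9 and 11 and UNT replicates 1, 2, 6, 7, 9 and 11 (edgeR adjusted p up to 0.106), and made a call of *Cd163* without PBS replicate 6 or 8 or RGLS4326 replicate 9 or 10 (edgeR adjusted p down to 0.0371). With the pan-macrophage level as a covariate, 1 of 6 was called in disease (2740 of 15644 genes in all) and 1 of 6 against UNT (4956 of 15644). The log2 fold changes in disease were then -2.97 for *Folr2*, -2.92 for *Fcna*, -1.64 for *Cbr2*, -0.36 for *Lyve1* and -0.62 for *Timd4*, and against UNT -4.48 for *Fcna*, -2.40 for *Cbr2*, -1.12 for *Lyve1* and -0.97 for *Timd4*, all reversed in sign. That level does not overlap between UNT and *Pkd2*-KO mice, so this fit cannot separate it from disease. Centred within sets, 8 of 27 correlations passed, against 5. With the replicate block 2 of 6 were called after treatment, since *Timd4* was lost (adjusted p = 0.085). The numbers did not pair the mice: deviations of same-numbered RGLS4326 and PBS mice correlated by -0.244 to 0.454. The cause of these changes was not tested.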

Other observations

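Signals that recruit or sustain macrophages were measured in the same kidneys. All 8 tested genes of that list were higher in disease (43.1% of all tested genes), and after RGLS4326 2 were lower (18.5%). *Ccl2*, *Ccl7*, *Ccl8* and *Ccl12* reached the filter's minimum in every *Pkd2*-KO library but in only 2 to 6 of 12 UNT libraries. Their difference from UNT was thus in part set beforehand. *Ccl8*, a chemokine of monocytes and macrophages, fell from a median of 20.4 CPM to 5.72 CPM (log2 fold change -1.71, SE 0.30, edgeR adjusted p = 0.000608), and *Csf1*, the macrophage growth factor, from 137 CPM to 113 CPM (-0.37, edgeR adjusted p = 0.0116). *Il34*, the other ligand of the CSF1 receptor, had -0.22 (edgeR adjusted p = 0.0698). Of 7 tested genes of alternative activation, 3 were lower after treatment (18.5% of all tested genes), among them *Retnla* (-1.29, edgeR adjusted p = 0.00602). Without the 4 libraries high in the share of reads in no gene, *Ccl8* (-1.39, edgeR adjusted p = 0.0275) was the 1 signal called (0.966% of all tested genes were lower), and edgeR called 0 of 7 genes of alternative activation, with 3 at an unadjusted p under 0.05.

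Of 11 tested monocyte and neutrophil genes 3 were lower and 0 higher after treatment. *Chil3* changed most (-1.26, edgeR adjusted p = 0.0382), *Fn1*, fibronectin, had 0.13 (edgeR adjusted p = 0.48), and *Ccr2*, the receptor of inflammatory monocytes, had 0.12 (edgeR adjusted p = 0.471). Of 8 dendritic cell genes 1 was lower and 1 higher. Of 11 tested relatives of the markers 1 was lower and 2 higher after treatment, and *F13b*, the B subunit of factor XIII, had log2 fold changes of -3.17 in disease and 1.04 after treatment, both opposite in sign to those of *F13a1*. Among the other lists, after treatment 4 of 6 blood endothelial, 0 of 3 blood cell, 1 of 3 contaminant and 6 of 8 kidney genes were higher, and 0, 0, 1 and 1 were lower. Of 4 injury genes 2 were lower. Over all tested genes 15.3% were higher and 18.5% lower. With the 4 libraries left out, when 1.13% of all tested genes were higher and 0.966% lower, edgeR called 0 of 11 monocyte and neutrophil, 0 of 8 dendritic cell and 0 of 8 kidney genes (5, 1 and 5 at an unadjusted p under 0.05), 4 of 6 blood endothelial genes, 0 of 3 blood cell genes (0 at an unadjusted p under 0.05), 1 of 3 contaminant genes, 1 of 11 relatives and 1 of 4 injury genes. *F13b* then had 1.09 (edgeR adjusted p = 0.0398) and *Chil3* -1.23 (adjusted p = 0.153).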
